A study of Saccharomyces cerevisiae with 6 samples.

Results

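The genes described here encode proteins of the mitochondrial ribosome of the budding yeast Saccharomyces cerevisiae. They were chosen by symbol, taking every gene with a probe set of its own whose name is MRP, MRPL, MRPS or RSM followed by a number, and 66 of the 5449 genes measured were found. Of the 66, 37 encode proteins of the large subunit and 28 proteins of the small subunit. The remaining gene, MRP8, encodes a protein of unknown function that is not a known ribosomal protein, and it was put in neither subunit. MRP35 matches the naming pattern but was not analysed here.

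The mitochondrial ribosome translates the few messenger RNAs of the mitochondrial genome, most of which encode membrane subunits of the respiratory chain and of the ATP synthase. Its RNAs come from the mitochondrial genome, whereas nearly all of its proteins are encoded in the nucleus, made on cytosolic ribosomes and imported. In yeast many transcripts of this group are bound by the RNA-binding protein Puf3, which ties their stability and translation to the carbon source.

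Total RNA was measured on Affymetrix arrays in 2 groups of 3 biological replicates of the haploid strain BY4742. The tested cultures grew for 5 h in the rich medium YPD with 80 µM clioquinol (CQ), a hydroxyquinoline drug that chelates metal ions such as zinc and copper. The controls grew for the same time in YPD with 1% of the solvent dimethyl sulfoxide (DMSO). Whether CQ was added in DMSO is not stated in the labels, and an effect of CQ and one of the solvent cannot be told apart. BY4742 is a derivative of S288C of mating type alpha with deletions at HIS3, LEU2, LYS2 and URA3, which both groups carry. The alpha-specific genes SAG1, STE3, MF(ALPHA)1 and MF(ALPHA)2 read from 850 to 7313, and the a-specific genes BAR1, STE2, MFA1 and MFA2 from 66.6 to 253. These markers moved with treatment: all 4 alpha-specific genes fell in CQ cultures (median log2 difference -0.98) and all 4 a-specific genes rose (median 0.78), SAG1 averaging 2868 with CQ and 6995 with DMSO and MFA1 206.9 with CQ and 72.56 with DMSO, and their part in the results was not tested. The deleted LEU2, LYS2 and URA3 stayed between 7.38 and 58.6, not above background on any array, while HIS3, of which BY4742 keeps a part, read from 732 to 1703.

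Values are the authors' deposited linear intensities, 1 per probe set and array, and differences are CQ minus DMSO on the scale of log2(intensity + 16), with the standard error of the fit. Each level is relative to the rest of the RNA on the same array, so fewer transcripts per cell and a change in the other RNAs cannot be told apart. A gene is said to have risen or fallen where limma gave a Benjamini-Hochberg adjusted p under 0.05 over all 5449 genes. Array medians over the genes were 977 to 1008 in CQ cultures and 890 to 926 in DMSO cultures. The 3' to 5' index, which compares the ends of 6 control transcripts and reflects RNA integrity and labelling, was 1.30, 1.53 and 1.15 on the CQ arrays and 0.96, 0.96 and 0.88 on the DMSO arrays (log2 scale), so CQ replicate 2 had the highest index. All 66 genes lay above background on all 6 arrays, none had a probe set shared with another sequence, and each had a single probe set.

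Many mitochondrial ribosomal protein genes fell in CQ cultures, by modest amounts, and few rose. Of the 66 genes, 31 fell, 5 rose and 30 did not pass, and 1 of those that fell and 1 of those that rose changed at least 2-fold. Among the 66 genes 47.0% fell and 7.58% rose, where over all genes 31.9% fell, 36.1% rose and 68% passed in either direction. At the 2-fold limit, 7.51% of all genes fell and 9.71% rose at least 2-fold. The median difference was -0.17, against 0.02 over all genes, and the middle 50% of the 66 lay between -0.49 and 0.01. CQ arrays lay wholly below DMSO arrays for 34 of the 66 genes and wholly above for 6, where the corresponding shares of all genes were 35.1% and 38.6%, or 73.7% in either direction. CQ replicate 2 gave the highest of the 3 CQ values for 54 of the 65 ribosomal genes (83.1%), against 34.0% of all genes, and its part in the result was not tested. Without that array 35 of the 66 genes were lower with CQ and 4 higher. Calls over all 5449 genes rose too, from 1739 to 1847 lower and from 1969 to 2109 higher.

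**Figure D1:**
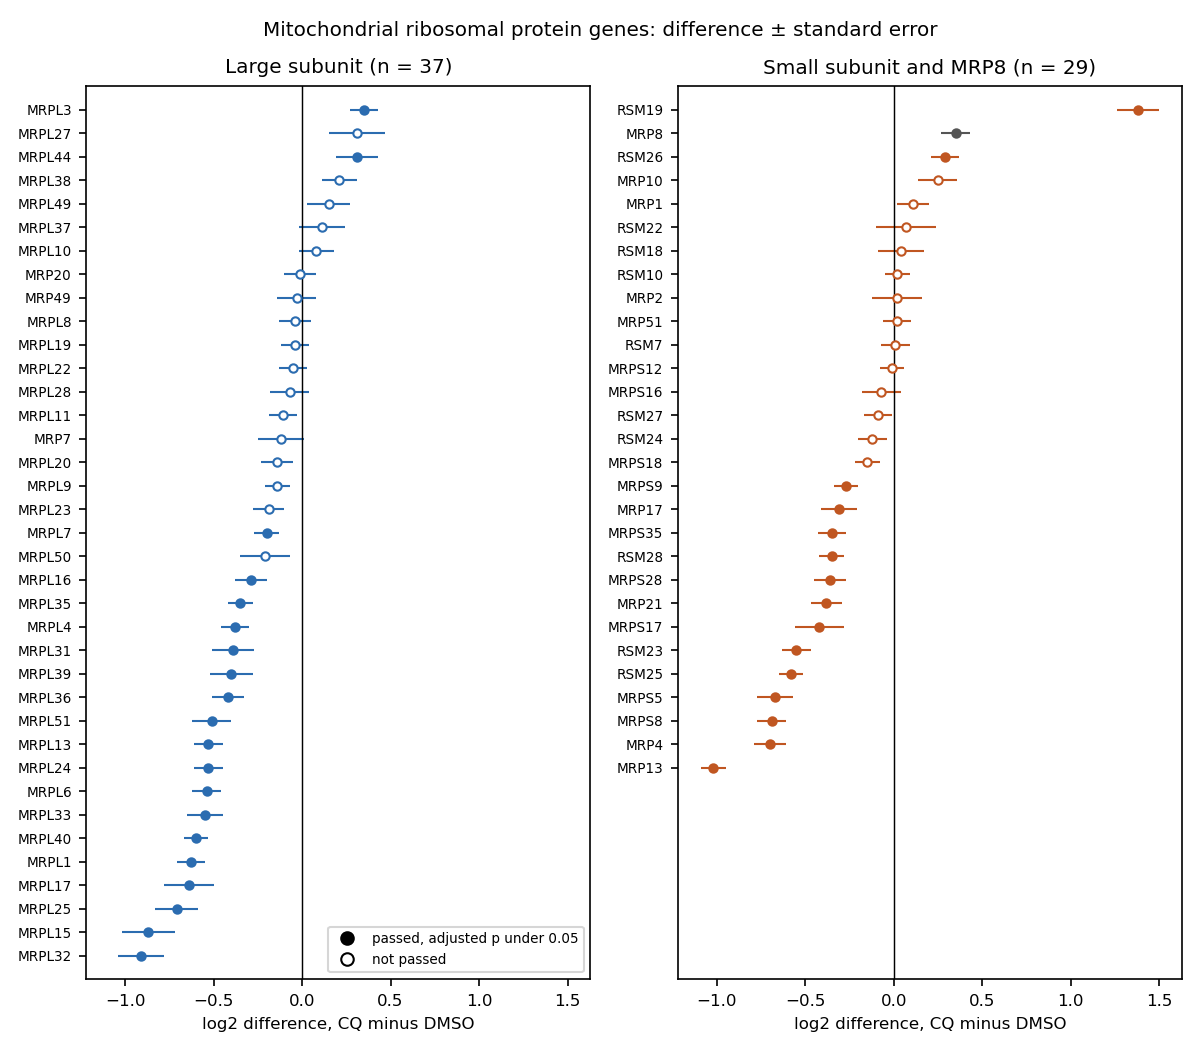
Log2 difference (CQ minus DMSO) of each gene with its standard error, large subunit on the left, small subunit and MRP8 on the right, ordered by difference; filled points passed the limma test over all genes. RSM19 lies apart from the other genes, and the differences run from -0.91 (MRPL32) to 0.35 (MRPL3) in the large subunit and from -1.02 (MRP13) to 1.38 (RSM19) in the small one.

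The counts and medians of the subunits lay close together. Among 37 large-subunit genes 18 fell, 2 rose and 17 did not pass, with a median of -0.20. Among 28 small-subunit genes 13 fell, 2 rose and 13 did not pass, with a median of -0.14. The share that fell was thus 48.6% in the large and 46.4% in the small subunit, both above the 31.9% of all genes. Relative to the mean of the DMSO arrays, the median large-subunit gene stood at -0.30, -0.10 and -0.32 on CQ replicates 1, 2 and 3, and at 0.02, 0.02 and -0.01 on the DMSO arrays. The median small-subunit gene stood at -0.17, -0.08 and -0.21 on the CQ arrays and within 0.01 of 0 on the DMSO arrays. The large-subunit median was therefore lower than the small-subunit median by 0.13, 0.02 and 0.11 in the 3 CQ cultures, a gap as small as the distance between CQ arrays of the same subunit.

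The size of these medians depended on how the arrays were put on a common scale and on adjustment for the 3' to 5' index and gene span. The index was higher on every CQ array than on every DMSO array, so index and treatment are hard to separate in any fit with both. When the index was added as a covariate the medians became -0.39 for the large and -0.42 for the small subunit, so the order of the subunits turned. With arrays centred on their median they were -0.33 and -0.27, which moved the median of all genes to -0.11 and the split over all genes to 1578 higher and 2211 lower with CQ, against 1969 higher and 1739 lower as deposited. With the trend on gene span removed they were -0.09 and -0.04.

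**Figure D2:**
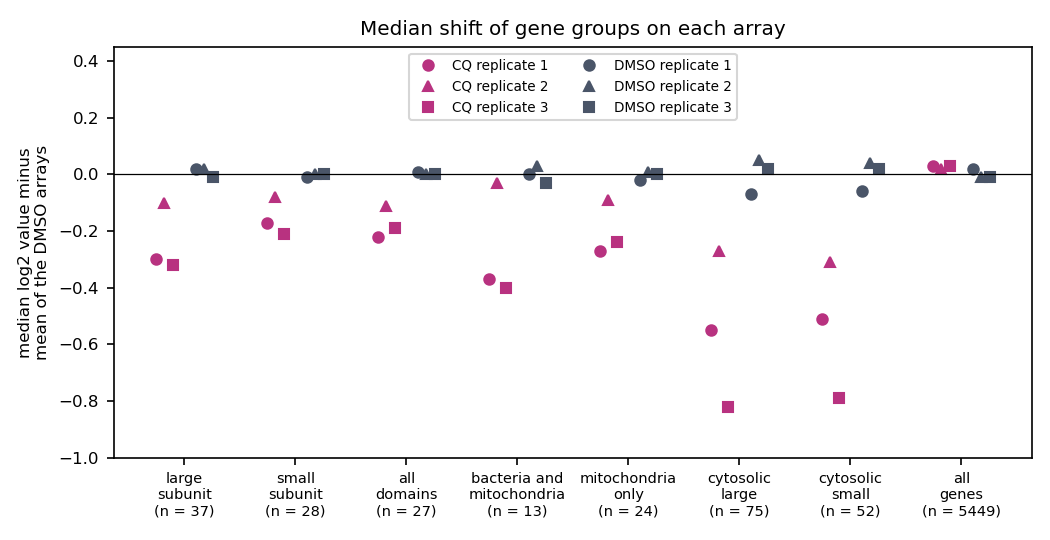
Median over each gene group of the log2 value minus the mean of the DMSO arrays, for every array (circles, triangles and squares are replicates 1, 2 and 3, CQ left and DMSO right in each group). In each mitochondrial group CQ replicate 2 is the CQ array nearest to 0, at -0.10 in the large and -0.08 in the small subunit, and the cytosolic ribosomal protein groups shift further down.

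The small-subunit gene MRP13, for a protein found only in mitochondria, had the largest decrease. Its intensity was 438, 456 and 432 in CQ cultures, against 952, 891 and 904 in DMSO cultures. The groups were far apart and the CQ arrays lay close together. The log2 difference was -1.02 ± 0.07 (limma adjusted p = 9.7e-06), which brought the CQ level to 0.492 of the DMSO level. It was the only member to fall at least 2-fold.

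Next came MRPL32, whose protein must be cleaved by the m-AAA protease of the inner membrane before it joins the large subunit. MRPL32 read 580, 777 and 561 in CQ cultures and 1278, 1151 and 1194 in DMSO cultures, a log2 difference of -0.91 ± 0.13 (limma adjusted p = 0.000352). The CQ arrays all lay below the DMSO arrays, with CQ replicate 2 the closest to them.

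MRPL15 encodes a large-subunit protein with a fold related to ribonuclease III. It stood at 482, 626 and 400 with CQ and at 848, 943 and 968 with DMSO, and fell by 0.87 on the log2 scale (SE 0.15, limma adjusted p = 0.00118). MRPL3 encodes the other large-subunit protein of this fold, which pairs with that of MRPL15 in the yeast ribosome, and it went the opposite way. MRPL3 read 1529, 1706 and 1589 with CQ and 1309, 1251 and 1222 with DMSO, a rise of 0.35 ± 0.08 (limma adjusted p = 0.00425). Neither pair of groups overlapped. MRPL3 did not pass with the index as a covariate.

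Other large-subunit genes fell by between 0.54 and 0.71. MRPL25, also named AFO1, was at 1181, 1545 and 1140 in CQ cultures and at 2108, 2039 and 2138 in DMSO cultures (log2 difference -0.71 ± 0.12). MRPL17, for a protein specific to mitochondria, was at 790, 1091 and 754 in CQ cultures, against 1324, 1391 and 1373 in DMSO cultures (-0.64 ± 0.14). Again CQ replicate 2 was the highest CQ array of both genes and still below every DMSO array.

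The remaining 4 of the 8 largest large-subunit decreases were in genes for counterparts of proteins present in all domains of life. MRPL1 encodes the protein of the mobile L1 stalk and averaged 1133 ± 84.5 in CQ cultures and 1763 ± 29.6 in DMSO cultures (SD, n = 3 each), a log2 difference of -0.63 ± 0.08. MRPL40 averaged 852.7 ± 33.5 with CQ and 1302 ± 33.6 with DMSO (-0.60 ± 0.07). MRPL33 and MRPL6 had smaller differences, -0.55 ± 0.10 and -0.54 ± 0.08. For each of these genes the 3 CQ values lay below the 3 DMSO values.

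In the small subunit, 3 genes for counterparts of universal ribosomal proteins followed MRP13. MRP4 stood at 597, 557 and 680 in CQ cultures, against 961, 1000 and 1028 in DMSO cultures (log2 difference -0.70 ± 0.09, limma adjusted p = 0.000248). MRPS8 stood at 631, 613 and 550 with CQ, against 965, 979 and 969 with DMSO (-0.69 ± 0.08, limma adjusted p = 0.00012). MRPS5 averaged 1135 ± 148 with CQ and 1812 ± 20.3 with DMSO (SD, n = 3 each; -0.67 ± 0.10). No CQ value of these genes reached a DMSO value, and for MRP4 the highest CQ array was replicate 3 and not replicate 2.

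RSM25 and RSM23 encode mitochondria-specific proteins of the small subunit, the second of them a GTP-binding protein related to human DAP3. RSM25 averaged 507.3 ± 7.29 in CQ cultures and 766.8 ± 18.8 in DMSO cultures (SD, n = 3 each), and the difference was -0.58 ± 0.07. RSM23 averaged 822.2 ± 30.4 with CQ and 1210 ± 69.6 with DMSO, a difference of -0.55 ± 0.08. Both fell with little spread among the CQ arrays. MRPS17 (-0.42 ± 0.14) and MRP21 (-0.38 ± 0.09) completed the 8 largest decreases of the small subunit. MRPS17 read 1336, 1747 and 1196 with CQ and 1988, 1941 and 1764 with DMSO, so that CQ replicate 2 lay just below the lowest DMSO array. MRPS17 did not pass without CQ replicate 1 or 3 or without DMSO replicate 1 or 2, with differences from -0.58 to -0.31 over the 6 fits that each left out 1 array.

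The sizes of several decreases moved by more than 1.5 times when the index was added as a covariate, and each still passed. In the large subunit MRPL32 was then at -1.40, MRPL15 at -1.46, MRPL25 at -1.14, MRPL17 at -1.18 and MRPL33 at -0.88. In the small subunit MRPS5 was at -1.03, MRPS17 at -1.01 and MRP21 at -0.66, while MRP4 was smaller at -0.41.

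RSM19, the gene for the counterpart of the universal small-subunit protein uS19, stood apart from all others. Its intensity was 1104, 1452 and 1101 in CQ cultures, against 465, 477 and 426 in DMSO cultures. Every CQ value was far above every DMSO value. The rise of 1.38 ± 0.12 on the log2 scale (limma adjusted p = 2.79e-05) was a 2.6-fold higher level with CQ. Under the 16 alternative settings the difference ranged from 0.93, with the index as a covariate, to 1.45 and passed in each.

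RSM19 and MRPS12 are neighbours in the RefSeq gene order and are the only such pair among the members. MRPS12 encodes the counterpart of the decoding-site protein uS12 and is annotated on the same strand by its locus tag. MRPS12 read 4567, 4178 and 4114 with CQ and 4356, 4365 and 4244 with DMSO, a difference of -0.01 ± 0.07 (limma adjusted p = 0.888). On the other side, on the opposite strand, lies DBP6, which encodes an RNA helicase of cytosolic large-subunit assembly. DBP6 fell to 195, 166 and 173 in CQ cultures, against 548, 666 and 645 in DMSO cultures (-1.71 ± 0.10, limma adjusted p = 5.04e-06). RSM19 and the genes beside it thus had 3 different outcomes: a rise, a difference near 0 and a fall.

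The other members that rose did so by little. RSM26 encodes a small-subunit protein related to manganese superoxide dismutases and read 1158, 1277 and 1118 with CQ, against 977, 955 and 962 with DMSO (0.29 ± 0.08, limma adjusted p = 0.0108). The groups of RSM26 did not overlap, but the gene did not pass with quantile normalization, with arrays centred on their median or with the index as a covariate. The related small-subunit protein is encoded by MRP1, named after its value was seen, whose difference was 0.11 ± 0.09 and did not pass. MRPL44 read 632, 699 and 528 with CQ, against 548, 482 and 453 with DMSO (0.31 ± 0.12, limma adjusted p = 0.0467). Its groups overlapped, and MRPL44 did not pass in the same 3 settings or without CQ replicate 1, CQ replicate 2, DMSO replicate 2 or DMSO replicate 3, its difference being -0.12 with the index as a covariate. MRP8, the gene with no known ribosomal role, was at 7703, 7603 and 6868 with CQ and at 6059, 5598 and 5722 with DMSO, a rise of 0.35 ± 0.08 that did not pass with the index as a covariate.

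**Figure D3:**
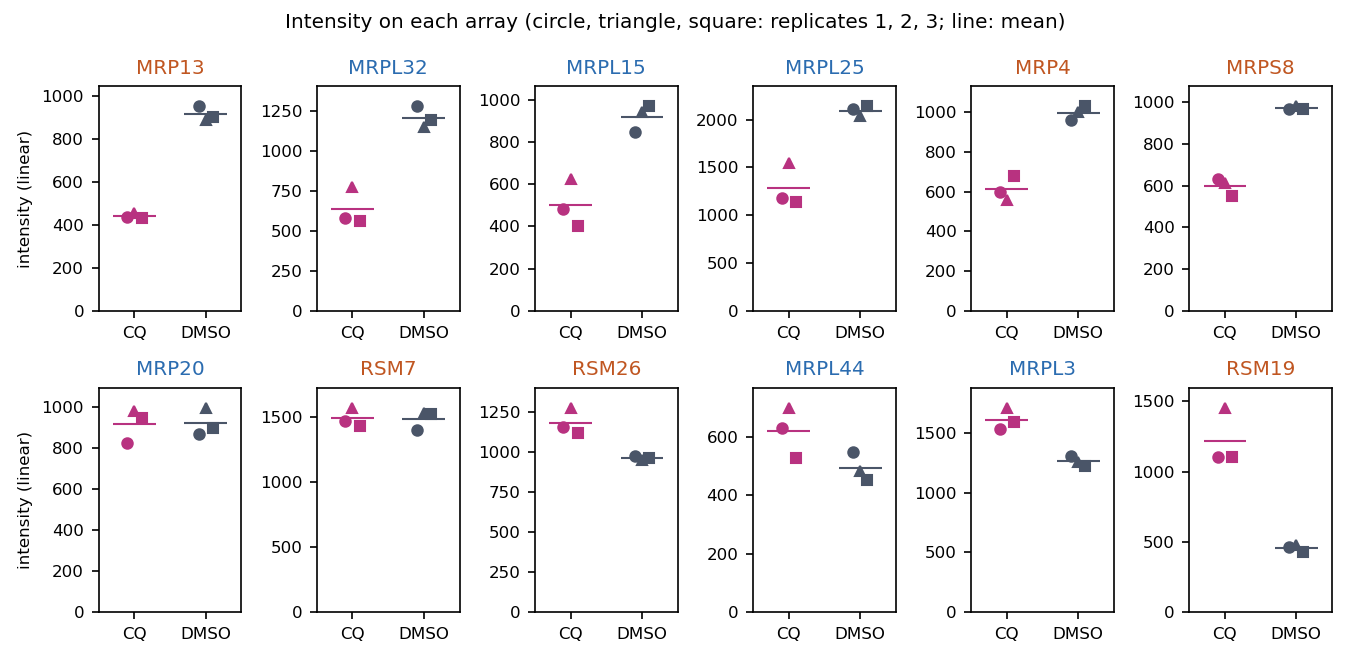
Linear intensity on each array of 12 members, CQ left and DMSO right, with a line at the mean of 3 arrays and all axes starting at 0; gene names are blue for the large and orange for the small subunit. MRP13, MRPL32, MRPL15, MRPL25, MRP4 and MRPS8 are lower with CQ on every array, MRP20 and RSM7 overlap, and RSM19 lies between 1101 and 1452 with CQ and between 426 and 477 with DMSO.

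The members with a difference nearest 0 were MRP20 in the large and RSM7 in the small subunit. MRP20, for the tunnel-exit protein uL23, read 824, 977 and 943 with CQ and 866, 993 and 897 with DMSO, a difference of -0.01 ± 0.09. RSM7, for the counterpart of uS7, read 1470, 1570 and 1433 with CQ and 1399, 1534 and 1520 with DMSO (0.01 ± 0.08). The groups overlapped for both, and both signs turned under other settings, so a difference of this size has no settled sign.

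Genes for proteins that lie together in the ribosome did not share 1 difference; those of this paragraph were named after their values were seen. At the exit of the peptide tunnel, MRPL40 and MRPL4 fell (-0.60 ± 0.07 and -0.38 ± 0.08), while MRPL22 stood at -0.05 ± 0.08 and MRP20 near 0. MRPL4 did not pass with the index as a covariate. At the stalk that recruits translation factors, MRPL11 (-0.11 ± 0.08) and MRPL19 (-0.04 ± 0.08) did not pass, whereas MNP1, whose symbol lies outside the naming pattern and which encodes the counterpart of bL12, fell by 0.56 (SE 0.12). MNP1 read 840, 944 and 686 with CQ, against 1187, 1275 and 1187 with DMSO, and its difference was -1.01 with the index as a covariate.

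Genes were also grouped by how widely the protein is conserved. The uniform ribosomal protein names listed in RefSeq mark proteins shared by all domains of life, proteins shared with bacteria and proteins of mitochondria alone. Over all genes 31.9% fell and 36.1% rose, with a median of 0.02. Of 27 genes of the universal class 13 fell (48.1%) and 1 rose (3.7%), with a median of -0.19. Of 13 genes shared with bacteria 6 fell (46.2%) and 7 did not pass, with a median of -0.21. Of 24 genes for mitochondria-specific proteins 12 fell (50%) and 3 rose (12.5%), with a median of -0.24. The 3 that rose were MRPL3, MRPL44 and RSM26. The shares that fell thus lay close together in the 3 classes and above that of all genes. RSM22, which has a methyltransferase-like protein, bears no uniform name there, and its difference was 0.07 ± 0.17. These medians moved with the settings. When the index was added as a covariate they were -0.27 for the universal class, -0.66 for the class shared with bacteria and -0.38 for the mitochondria-specific class. With arrays centred on their median they were -0.33, -0.35 and -0.38 in the same order, and with the trend on gene span removed -0.09, -0.12 and -0.15. The median of the class shared with bacteria was -0.13 without CQ replicate 1, -0.39 without CQ replicate 2 and -0.11 without CQ replicate 3.

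Among 34 MRPL genes 18 fell, among 9 MRPS genes 6 fell and 3 did not pass, among 11 RSM genes 3 fell and 2 rose, and among 11 ribosomal genes named MRP plus a number 4 fell and 7 did not pass. The medians were -0.25, -0.35, 0.01 and -0.03. The shares that fell were 52.9% of MRPL, 66.7% of MRPS, 27.3% of RSM and 36.4% of MRP genes, where 31.9% of all genes fell. The shares that rose were 5.88% of MRPL, 18.2% of RSM and 0% of MRPS and MRP genes, against 36.1% of all genes. In the share that fell, but not in the share that rose, RSM and MRP genes thus lay near all genes.

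These genes are short. Their median span in RefSeq was 714 base pairs over the 65 ribosomal members, from 213 to 1887, against 1236 over all genes. Across all 5449 genes longer genes tended to higher differences (Spearman rho 0.22), whereas across the 65 members rho was -0.20 (-0.07 in the large and -0.35 in the small subunit). These coefficients are descriptions, since all genes were read from the same 6 arrays.

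**Figure D4:**
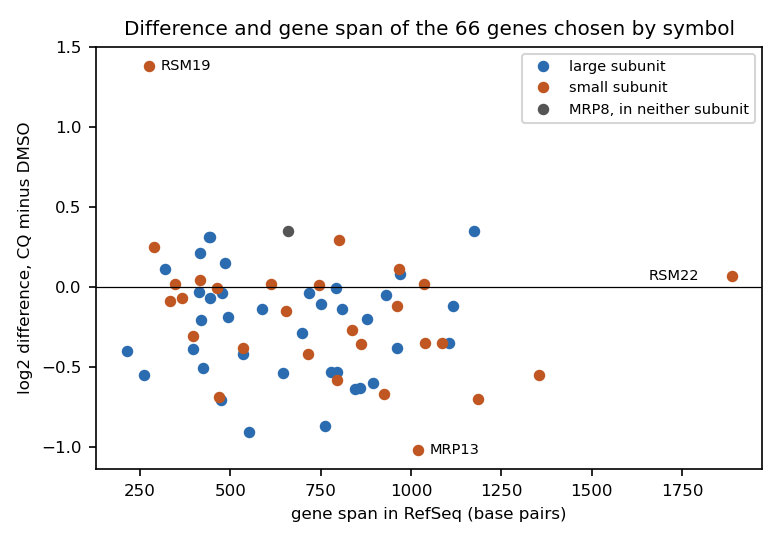
Log2 difference (CQ minus DMSO) against gene span in RefSeq for the 66 genes, coloured by subunit. RSM19, at 276 base pairs, lies at 1.38, and MRP13, at 1020 base pairs, at -1.02, with no rise of the difference along the axis.

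Another 13 genes for proteins of the same ribosome bear other names. Of these 38.5% fell and 15.4% rose, against 31.9% and 36.1% of all genes. Of 8 such genes of the large subunit 3 fell, 1 rose and 4 did not pass, with a median of -0.13. Besides MNP1, the genes that fell were RML2 (-0.29 ± 0.07) and RTC6 (-0.23 ± 0.08). IMG1, for the counterpart of bL19, rose to 1991, 2117 and 2011 in CQ cultures, against 1568, 1641 and 1603 in DMSO cultures (0.34 ± 0.07, limma adjusted p = 0.00287), and did not pass with the index as a covariate. Of 5 measured genes of the small subunit 2 fell, 1 rose and 2 did not pass. FYV4 had nearly the same decrease as MRP13: 396, 439 and 430 with CQ, against 868, 842 and 842 with DMSO (-0.99 ± 0.07, limma adjusted p = 1.41e-05). PET123 fell by 0.52 (SE 0.15), and EHD3, whose protein resembles a hydrolase of valine breakdown, rose by 0.38 ± 0.08. VAR1, the ribosomal protein gene of the mitochondrial genome, was not analysed here.

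Of 12 genes for translation factors of mitochondria 2 fell (16.7%), 3 rose and 7 did not pass, with a median of -0.05, where 31.9% of all genes fell and 36.1% rose. MEF2 encodes the elongation factor G type that acts with the ribosome recycling factor Rrf1 to split ribosomes after termination. MEF2 read 1394, 1524 and 1826 in CQ cultures, against 535, 558 and 488 in DMSO cultures, and rose by 1.55 ± 0.11 (limma adjusted p = 1.16e-05). RRF1, for its partner, stood at 424, 500 and 350 with CQ and at 620, 574 and 587 with DMSO, and fell by 0.48 (SE 0.12, limma adjusted p = 0.0089), or by 0.97 with the index as a covariate. The partners of recycling therefore moved in opposite directions, with no overlap of the groups for either gene. The other genes past the threshold were MEF1, MTQ1 and IFM1. MEF1, for the elongation factor of translocation, fell and passed only narrowly (-0.26 ± 0.10, limma adjusted p = 0.0444). MTQ1, for the methyltransferase of the release factor (0.44 ± 0.09), and IFM1, for initiation factor 2 (0.42 ± 0.10), rose.

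Of 11 genes for ribosome assembly and RNA modification 3 fell (27.3%), 3 rose (27.3%) and 5 did not pass, with a median of 0.09, shares near the 31.9% and 36.1% of all genes. MRM2, a methyltransferase of the large ribosomal RNA of mitochondria, rose to 1613, 1553 and 1513 with CQ, against 1151, 1027 and 1053 with DMSO (0.53 ± 0.08). The largest decrease was in PUS4 (-1.27 ± 0.08), whose enzyme modifies transfer RNAs of both cytosol and mitochondria and is not an assembly factor.

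Of 16 activators of single mitochondrial messenger RNAs 4 fell, 5 rose (31.2%) and 7 did not pass, with a median of 0.00, again near the 31.9% and 36.1% of all genes. CBP6 and CBP3 encode partners that bind the tunnel exit and promote synthesis of cytochrome b. CBP6 read 770, 1039 and 815 with CQ, against 1591, 1654 and 1658 with DMSO (-0.90 ± 0.11), and CBP3 fell by 0.66 (SE 0.07). AEP2, which is needed for translation of the messenger RNA of an ATP synthase subunit, rose to 215, 195 and 222 with CQ, against 90.9, 80.2 and 86.6 with DMSO (1.15 ± 0.08). Of 4 genes for attachment of ribosomes to the inner membrane MDM38, YLH47 and MBA1 fell (75%), where 31.9% of all genes fell. The fourth, OXA1, did not pass (-0.26 ± 0.13), and the median of this short list was -0.54. MDM38 had the largest decrease, with 862, 775 and 808 in CQ cultures, against 1533, 1589 and 1403 in DMSO cultures (-0.87 ± 0.08).

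**Figure D5:**
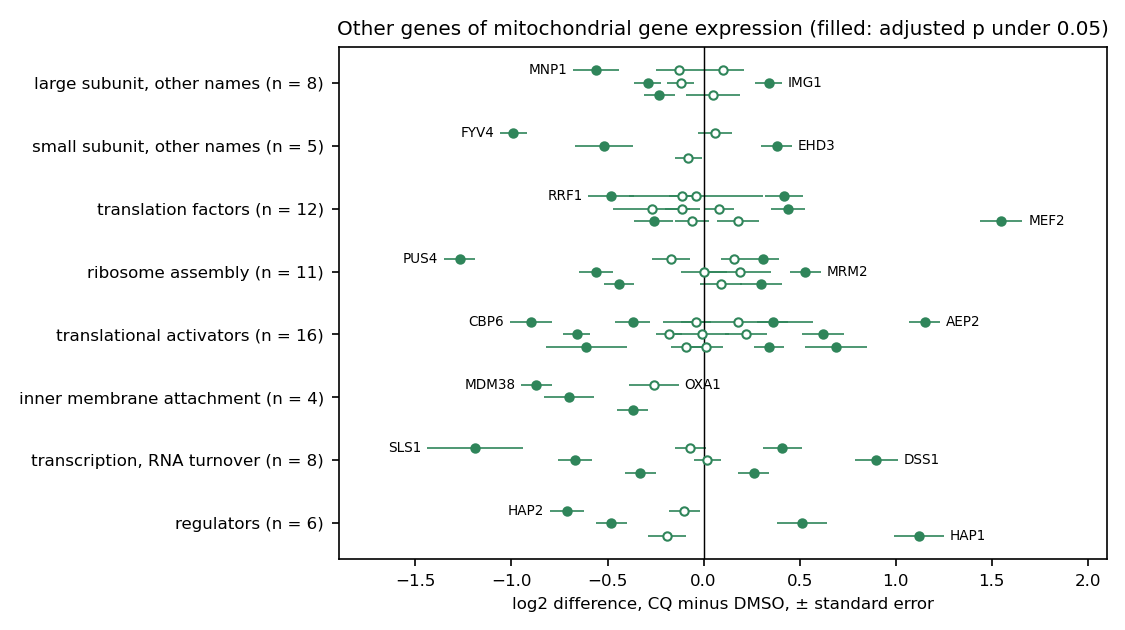
Log2 difference (CQ minus DMSO) with its standard error for other genes of mitochondrial gene expression, by list; filled points passed the limma test over all genes, and the lowest and highest gene of each list is named. Most lists extend to both sides of 0, with MEF2 at 1.55 and PUS4 at -1.27 as the extremes.

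Of 8 genes of mitochondrial transcription and RNA turnover 3 fell (37.5%) and 3 rose (37.5%), close to the 31.9% and 36.1% of all genes. SLS1, whose protein links transcription to translation at the inner membrane, was at 190, 77.4 and 139 with CQ, against 314, 315 and 312 with DMSO (-1.19 ± 0.25), and did not pass with the index as a covariate. DSS1, the exoribonuclease of the mitochondrial degradosome, rose by 0.90 ± 0.11, or by 0.52 with the trend on gene span removed and 0.59 with the index as a covariate. Of 6 regulators known for mitochondrial genes, HAP2 (-0.71 ± 0.09) and HAP4 (-0.48 ± 0.08) of the CCAAT-binding complex fell, HAP3 (0.51 ± 0.13) and HAP1 (1.12 ± 0.13) rose, and PUF3 (-0.19 ± 0.10) and HAP5 (-0.10 ± 0.08) did not pass. The rise of HAP1, a long gene, was 0.48 with the trend on gene span removed. HAP4 read 2849, 2418 and 2743 with CQ and 3634, 3769 and 3760 with DMSO, and did not pass with the index as a covariate. In S288C-derived strains HAP1 carries a transposon insertion.

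Cytosolic ribosomal protein genes, listed for comparison, also fell in large numbers. Of 75 genes of the cytosolic large subunit 60 fell (80.0%), with a median of -0.56, and of 52 genes of the small subunit 37 fell (71.2%), with a median of -0.55, where 31.9% of all genes fell, while the small-subunit genes RPS14B and RPS22B rose (both chosen with their values known). For mitochondrial genes the corresponding shares were 48.6% and 46.4%. No test was made of the difference between the families. On CQ replicates 1, 2 and 3 the cytosolic large-subunit median stood at -0.55, -0.27 and -0.82 relative to the DMSO arrays, so both families were nearest to 0 on CQ replicate 2.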

How the data were processed

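The authors' deposited table gives a linear intensity for each probe set on each of the 6 arrays. How probes were summarised and arrays scaled is not given in the sources used here, and no further normalization was applied. Per the labels' protocols, total RNA was extracted with hot phenol and biotin-labelled cRNA was hybridised. Of 10928 probe sets, 5498 were annotated to a single S. cerevisiae gene, giving 5449 genes. For 47 genes with several probe sets the brightest was kept, and 12 symbols were updated through RefSeq (assembly R64). Values were taken as log2(intensity + 16) and CQ was compared with DMSO in limma 3.58.1 (R 4.3.3) with lmFit and eBayes and Benjamini-Hochberg adjustment over all genes. The calculation was tested on simulated data. The labels call the 3 arrays of a group biological replicates, and the number of arrays limits the precision. Background is the 95th percentile of 1746 probe sets for Schizosaccharomyces pombe on the same array.

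The members and gene lists were chosen with earlier results of these data known. Named were all members that rose, the 8 largest decreases without overlap in each subunit, the member nearest 0 in each, MRP8, HAP4, VAR1 and the largest increase and decrease of each other list; further genes were named after their values were seen. Promoter sequences were not analysed here. The alternatives were other normalizations, pseudocounts, filters and probe-set rules, an intensity trend, the replicate number, the 3' to 5' index, gene span and leaving out each array.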

Additional observations from a re-analysis of the deposited data

How the results depend on the processing

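Of the 36 calls among the 66 genes, 22 (21 lower, 1 higher) passed in the same direction under all 16 alternatives, and all 36 did with pseudocounts of 1 and 64. Leaving out genes under background and averaging probe sets could hardly change a member, since each has 1 probe set and lies above background on every array. The 5 higher calls became 3 with quantile normalization, 3 with median centring, 1 with the 3' to 5' index in the model and 10 with gene span removed. In the same order the 31 lower calls became 35, 37, 34 and 28. The counts over all 5449 genes moved as well. Their 1739 lower calls became 1904, 2211, 1408 and 1859, and their 1969 higher calls 1842, 1578, 1596 and 1821. The small-subunit median (-0.14) moved to -0.23, -0.27, -0.42 and -0.04 in these settings. The large-subunit median (-0.20) moved to -0.30, -0.33, -0.39 and -0.09 in the same order. The cause was not tested. The index differs between the groups on every array, so index and treatment are hard to separate. Leaving out 1 array gave 25 to 35 lower and 4 to 7 higher calls, 14 to 22 in the large and 11 to 13 in the small subunit among the lower, and medians of -0.29 to -0.14 and -0.16 to -0.13. Over all genes these fits gave 1526 to 1847 lower and 1701 to 2109 higher calls. Signs turned for RSM7 (-0.08 with quantile normalization, -0.13 with centring, -0.11 with the index; -0.04 to 0.03 with 1 array left out), for MRPL44 (-0.12 with the index) and for MRP20 (0.10 with gene span; -0.06 to 0.06 with 1 array left out). With the replicate number as a block 30 genes were lower and 5 higher, with medians of -0.20 and -0.14. Deviations of same-numbered arrays correlated at 0.055, 0.121 and 0.142, and those of differently numbered arrays at -0.137 to -0.004. Every array thus correlated best with its own number, if weakly. The main fit did not pair the cultures by number, and whether the numbers mark pairs was not settled. The planned search for promoter motifs was not run.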
